A study of Mus musculus with 2 samples.

Results

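Immediate early response genes were followed across the cell classes of whole mouse lung in single-cell RNA libraries. The set held 10 genes chosen by symbol: Fos, Fosb, Jun, Junb, Jund, Egr1, Atf3, Ier2, Ier3 and Dusp1. All 10 were found once each among the 32286 features of the count matrices. Both libraries came from female BALB/c mice of 9 to 10 weeks that had received intravenous injections over 3 weeks. The TCM mice received medium in which pieces of 4T1 mammary tumors, grown in BALB/c mice, had been incubated. The CM mice received the same medium incubated without tumor. Each condition had 1 library and the number of mice behind it is not given in the sources used here, so the spread between mice could not be measured and no test was made.

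Immediate early genes are transcribed within minutes of a stimulus, from factors already present in the cell and without new protein synthesis. Fos and Jun family proteins pair to form AP-1, a transcription factor that binds DNA as a dimer. Egr1 and Atf3 encode further transcription factors, Ier2 and Ier3 encode small regulators, and Dusp1 encodes a phosphatase that switches MAP kinases off. In lung these genes respond to growth factors, mechanical load, inflammation and injury. They are also known to rise while tissue is digested into single cells. The lungs of both libraries were digested before capture, so RNA present in the intact lung and RNA made during handling cannot be told apart here.

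The windows around the RefSeq starts of Fos, Junb and Dusp1 are shown because Fos was the leading member in smooth muscle-like cells, and Junb and Dusp1 were the leading members in neutrophil-like cells. Each window runs from 250 bases before the start to 50 after it and is given 5′ to 3′ on the strand of the gene, from build GRCm38.p6. The Fos window is chr12:85473640-85473939 (+), the Junb window chr8:84978699-84978998 (−) and the Dusp1 window chr17:26508423-26508722 (−). Capitals mark TGACG on either strand, which is the core of the cyclic AMP response element (CRE), and TATAA on the strand of the gene.
Fos: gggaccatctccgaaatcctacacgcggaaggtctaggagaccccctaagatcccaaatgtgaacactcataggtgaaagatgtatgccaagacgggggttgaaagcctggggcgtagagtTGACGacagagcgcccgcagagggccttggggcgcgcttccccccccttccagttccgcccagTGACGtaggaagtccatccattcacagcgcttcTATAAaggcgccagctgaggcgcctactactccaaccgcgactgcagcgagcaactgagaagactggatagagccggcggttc
Junb: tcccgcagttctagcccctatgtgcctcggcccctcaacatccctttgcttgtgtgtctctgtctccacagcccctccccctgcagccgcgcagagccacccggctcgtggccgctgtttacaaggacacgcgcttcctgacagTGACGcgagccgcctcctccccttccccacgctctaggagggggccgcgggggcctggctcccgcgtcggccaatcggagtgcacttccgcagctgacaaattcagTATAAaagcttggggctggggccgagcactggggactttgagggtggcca
Dusp1: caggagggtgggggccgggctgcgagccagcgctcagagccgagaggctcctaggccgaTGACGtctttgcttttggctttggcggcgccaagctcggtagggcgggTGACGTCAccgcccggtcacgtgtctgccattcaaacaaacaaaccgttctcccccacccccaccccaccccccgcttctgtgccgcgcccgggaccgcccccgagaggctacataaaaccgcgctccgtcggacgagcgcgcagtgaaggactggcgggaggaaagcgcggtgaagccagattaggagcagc

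RefSeq windows were found for 8 of the 10 genes, and Egr1 and Ier2 were not matched. The Jund window, chr8:70697489-70697788 (+), ends before the start of the Jund coordinates given below (70698949) and so does not cover that start. The Dusp1 window and the Atf3 window, chr1:191183284-191183583 (−), lie inside the coordinates given below for these genes. They do not cover the starts of those coordinates on the − strand, 26562128 for Dusp1 and 191218039 for Atf3. The core TGACG stood in 5 of the 8 (Atf3, Dusp1, Fos, Fosb and Junb), beside 20.8% of all 32851 windows. The whole palindrome TGACGTCA, which holds that core on each strand, was found in Dusp1 alone, beside 1.79% of all windows. TATAA was in Fos, Ier3 and Junb, beside 17.5%. None of the 8 held a CArG box, the site of serum response factor (1.63% of all windows), or the AP-1 sites TGACTCA or TGAGTCA (5.2%). All but TATAA were searched on both strands. These matches describe the letters of the windows and nothing was measured on them.

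The libraries held 31944151 (CM) and 36648719 (TCM) UMIs, unique molecular identifiers that each stand for 1 captured RNA molecule. Filters on depth, genes and mitochondrial UMIs left 7988 CM and 7707 TCM cells, with medians of 2085 and 2346 UMIs. Marker genes placed 5743 and 6089 of them in a class, and the 13 classes that held 50 cells or more in both libraries were compared. Genes outside the gate were highest where the class names place them: Sftpc in AT2-like, Emp2 in AT1-like, Cd93 in endothelial-like and S100a8 in neutrophil-like cells. The 2 libraries shared 93 cell barcodes, where 83.5 are given by chance. Levels are CP100k, the UMIs of a gene per 100000 UMIs of the class, with 95% exact Poisson intervals. All intervals cover counting error only, and since RNA is counted relative to the class total, a lower level cannot be told apart from more of other RNA.

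The 10 genes together made up more than 1% of all RNA molecules counted in 5 classes, and the order of the classes was nearly the same in both libraries. Smooth muscle-like cells led with a summed level of 2218 CP100k in CM (2184 to 2253) and 2003 in TCM (1968 to 2038). Neutrophil-like cells stood at 1881 and 1322, fibroblast-like cells at 1778 and 1622, endothelial-like cells at 1206 and 1160, and interstitial macrophage-like cells at 1186 and 1160. These 5 classes lay above 1000 CP100k in both libraries. A middle group held monocyte-like (725 in CM, 812 in TCM), AT2-like (680 and 748) and AT1-like cells (576 and 585).

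The lowest summed levels were in lymphocytes, pericytes and the resident macrophages of the air space. NK cell-like cells were at 460 and 543, B cell-like cells at 433 and 414, pericyte-like cells at 345 and 408, and T cell-like cells at 306 and 347. Alveolar macrophage-like cells were lowest in both libraries, at 247 (238 to 257) and 270 (262 to 279), while interstitial macrophage-like cells of the same lungs were among the 5 highest classes. From the lowest to the highest class the sum spanned 8.97-fold in CM and 7.41-fold in TCM. Spearman's rho between the class orders of both libraries was 0.99 over 13 classes, given as a description. Neighbours in the order had overlapping intervals in CM for endothelial-like with interstitial macrophage-like and NK cell-like with B cell-like cells. In TCM this held for interstitial macrophage-like with endothelial-like, AT1-like with NK cell-like, and B cell-like with pericyte-like cells.

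**Figure D1:**
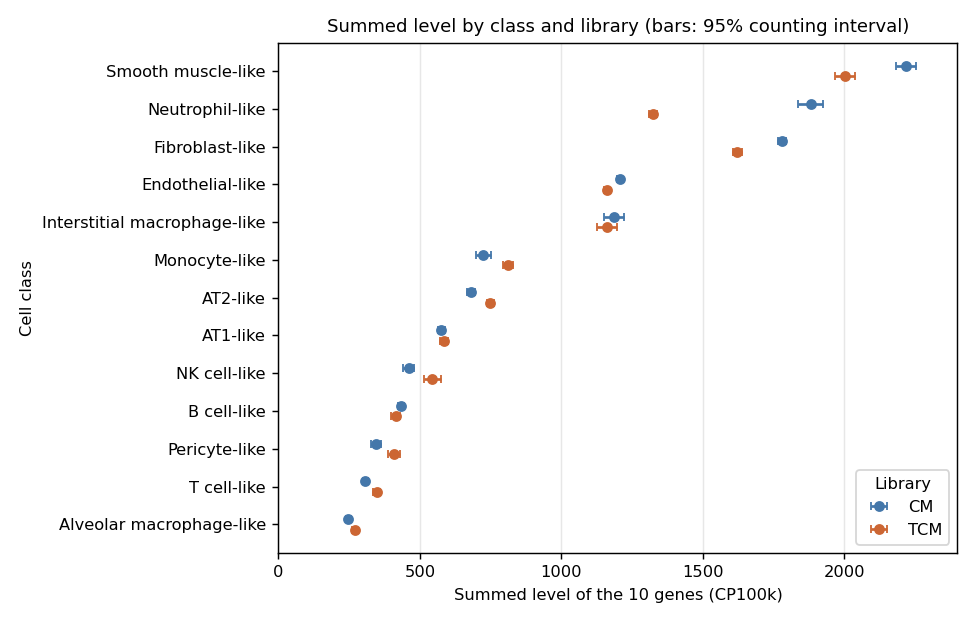
Summed level of the 10 immediate early genes (x axis, CP100k) in 13 cell classes (y axis, ordered by CM); points are the CM and TCM libraries and bars are 95% counting intervals. Smooth muscle-like cells lie highest and alveolar macrophage-like cells lowest in both libraries, and the widest gap between the libraries is in neutrophil-like cells (1881 against 1322).

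Fos, the founding partner of AP-1 (chr12:85473890-85477273, + strand), differed widely between classes. Its level was highest in smooth muscle-like cells (617 CP100k in CM, 525 in TCM), followed by fibroblast-like (345 and 293) and, in CM, neutrophil-like cells (288). It was lowest in T cell-like cells (17.7 and 18.5), which left a span of 34.9-fold in CM and 28.3-fold in TCM. Fosb, its close relative (chr7:19302696-19310051, − strand), had the same highest and lowest classes. Fosb levels ran from 1.22 to 32.4 CP100k in CM and from 2.78 to 36.2 in TCM. Fosb supplied under 2% of the summed UMIs of most classes, and its largest share was 4.28% (CM) and 5.01% (TCM) in alveolar macrophage-like cells.

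The 3 Jun family members were distributed in different ways. Jun (chr4:95049034-95052222, − strand), the best known Jun partner of Fos, was highest in fibroblast-like cells (280 and 234 CP100k) with endothelial-like (232 and 210) and smooth muscle-like cells (214 and 207) close to each other behind them. It was detected in 77.0% of CM and 76.9% of TCM endothelial-like cells thinned to 1000 UMIs. Neutrophil-like cells, second for the sum in CM, held little Jun, at 30.1 and 23.8 CP100k. Junb (chr8:84974484-84978718, − strand) showed the reverse, with its highest level in neutrophil-like cells (548 and 391), where Jun supplied 1.6% of the member UMIs in CM and Junb 29.2%. Jund (chr8:70698949-70700616, + strand), which is expressed in most cells without a stimulus, was the most even member. Its level spanned 2.47-fold in CM, from 64.8 in pericyte-like to 160 in smooth muscle-like cells, and 2.74-fold in TCM.

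Junb and Jund made up most of the signal of lymphocytes. Of the member UMIs of T cell-like cells, Junb gave 40.7% in CM and 40.2% in TCM, and Jund 21.4% and 20.7%. In B cell-like cells Junb gave 33.0% and 30.8%, and Jund 26.1% and 29.9%. Alveolar macrophage-like cells drew the largest share from Jund, with 30.7% in CM and 28.6% in TCM. Thus the low sum of these classes was reached with other proportions of the genes than the high sum of smooth muscle-like cells, where Fos gave 27.8% and 26.2%.

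Egr1, a zinc finger transcription factor induced by growth factors (chr18:34859823-34864984, + strand), was highest in smooth muscle-like cells at 275 CP100k in CM and 274 in TCM. Fibroblast-like cells followed with 159 and 146, and endothelial-like cells had 74.8 and 73.1. Egr1 was found in 76.9% and 71.8% of the thinned smooth muscle-like cells. Atf3, a stress-induced factor that binds CRE sites (chr1:191170296-191218039, − strand), was also highest there, at 185 and 132. Its second class was interstitial macrophage-like cells, at 130 and 94.5. Atf3 spanned 74.2-fold over the classes in CM and 52.6-fold in TCM, with T cell-like cells lowest.

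Ier3, a regulator of survival under stress (chr17:35821684-35822923, + strand), stood apart from the other members by its place in endothelial and AT1-like cells. Its level was 196 CP100k in CM and 238 in TCM in endothelial-like cells, and 171 and 209 in AT1-like cells, against 25.0 and 31.7 in AT2-like cells. Ier3 gave 29.7% of the member UMIs of AT1-like cells in CM and 35.7% in TCM, more than any other member, and was detected in 64.6% and 72.4% of the thinned cells. In CM it had the widest span of the 10 genes, 94.6-fold. Ier2 (chr8:84661331-84662852, − strand) was more even, with a span of 6.74-fold in CM and its highest level in fibroblast-like cells (134 and 119). NK cell-like cells, low in Fos, had 73.1 and 89.1 CP100k of Ier2.

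Dusp1, the phosphatase that removes activating phosphates from MAP kinases (chr17:26505590-26562128, − strand), was highest in neutrophil-like cells at 514 CP100k in CM and 362 in TCM. It was detected in 89.6% and 91.0% of the thinned neutrophil-like cells and gave 27.3% and 27.4% of their member UMIs. Fibroblast-like cells came second, at 238 and 254, and interstitial macrophage-like cells next, at 167 and 149. Alveolar macrophage-like cells were lowest again, at 18.9 and 20.3.

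**Figure D2:**
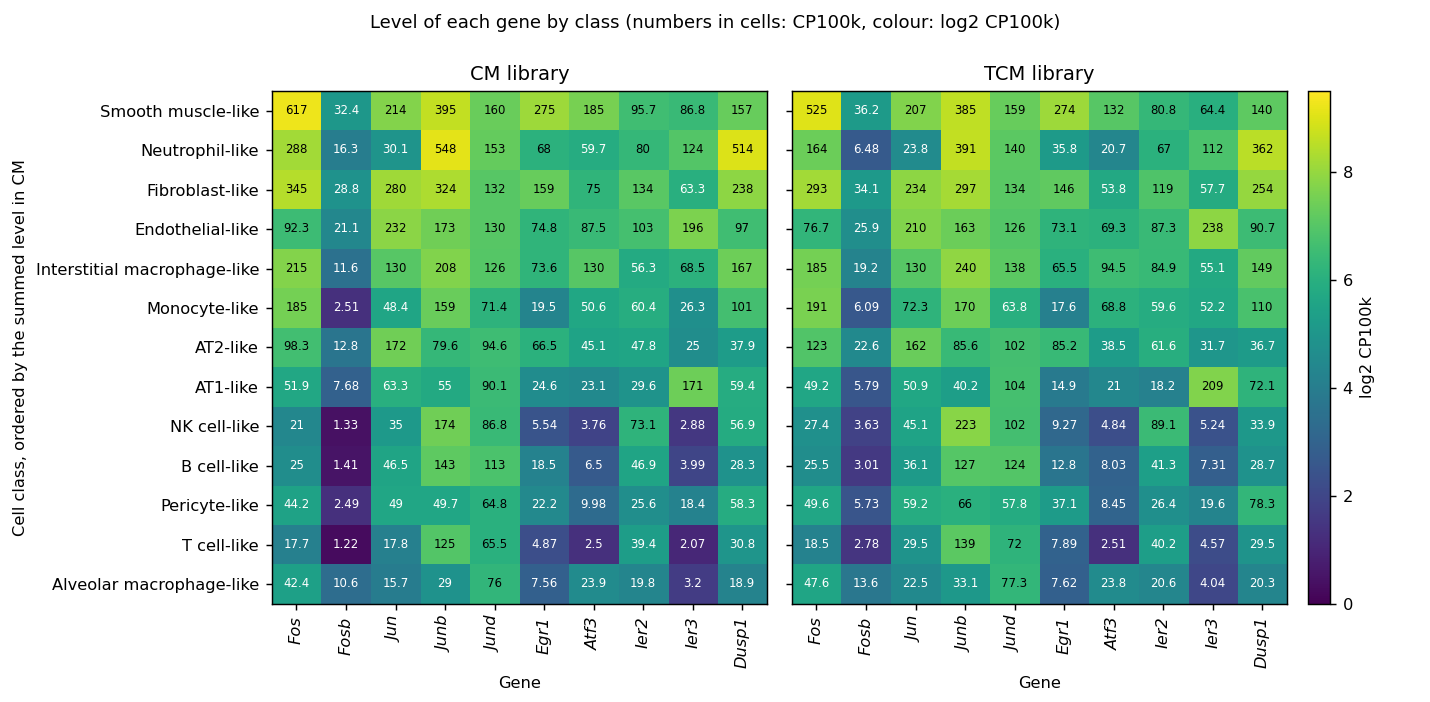
Level of each of the 10 genes (columns) in 13 cell classes (rows, ordered by the sum in CM) in the CM library at left and the TCM library at right; colour is log2 CP100k and the printed values are CP100k. Fos is highest in smooth muscle-like, Junb and Dusp1 in neutrophil-like and Ier3 in endothelial-like cells in both libraries, while Jund varies least between rows.

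Free RNA, released from broken cells and taken up with every droplet, was set beside the low values. It was estimated at 111 UMIs per cell in CM and 245 in TCM, with its profile read from droplets of at most 50 UMIs. The summed members were at least 10.5 times the free RNA expectation in every CM class and at least 4.68 times in every TCM class. Of the 130 pairs of a member and a class, 10 in CM and 15 in TCM held under 2 times the UMIs expected from free RNA. Fosb, Egr1, Atf3 and Ier3 in T cell-like and NK cell-like cells were among them in both libraries. The Ier3 count of T cell-like cells was 1.02 times the expectation in CM and 0.753 times in TCM. These low values are read as background, and the lowest class of Fosb, Egr1, Atf3 and Ier3 in CM, and of Fosb, Atf3 and Ier3 in TCM, was among them, so the spans given above for these genes rest on such a value.

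The comparison of TCM with CM addressed whether injections of tumor medium went with a different level of these genes in any lung class. None of the 13 classes compared differed by 1.5-fold or more in the sum. Classes with too few cells to compare are given at the end. Over all gated cells the sum was 1010 CP100k in CM and 1017 in TCM (log2 ratio 0.01), over a different mix of classes, with neutrophil-like cells at 3.19% of the kept cells in CM and 17.9% in TCM. Of the 13 classes, neutrophil-like cells differed most, with a log2 ratio of −0.51 (−0.55 to −0.47). The other 12 classes lay between −0.15 (smooth muscle-like) and 0.24 (NK cell-like and pericyte-like). The pericyte-like value depended on the cells taken: it was 0.62, past 1.5-fold and further from 0 than the neutrophil-like value (−0.58), with the stricter gate, and −0.04 without the cells of highest doublet score.

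In neutrophil-like cells all 10 members were lower in TCM, and 4 passed 1.5-fold, beside 24.6% of the 4059 features compared in this class that were lower by as much. Of the 10, Jun was under 2 times the free RNA expectation in TCM (1.71 times), and 10 cells held 77.9% of its CM UMIs. Fos was at 288 CP100k in CM and 164 in TCM (log2 ratio −0.82, −0.91 to −0.72). Fosb was at 16.3 and 6.48 (−1.33), Egr1 at 68.0 and 35.8 (−0.93), and Atf3 at 59.7 and 20.7 (−1.53, −1.76 to −1.29). The 2 most abundant members were lower by less, Junb by −0.49 and Dusp1 by −0.51 on the log2 scale, and Jund was nearest to 0 at −0.13. The median over the members was −0.50 and the median over all features of the class −0.17, so the features of the class as a whole were lower as well.

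Several other measures moved with this difference. The CM library held 255 neutrophil-like cells with a median of 1236 UMIs, and the TCM library 1377 with a median of 1606. The summed gate markers of neutrophils in cells below the cut for high cells, described next, were at 1514 CP100k in CM and 2468 in TCM. The 6 heat-shock genes, in contrast, summed to 37.1 and 34.3 in this class. Of the other 29 immediate early genes on the list, 25 had enough UMIs here, and 9 were lower and 2 higher by 1.5-fold, with a median log2 ratio of −0.36. The orphan nuclear receptor genes Nr4a1 (−1.95) and Nr4a3 (−1.71) were furthest below, and Ccn1 (1.20) and Socs3 (0.64) furthest above. Whether the state of the neutrophils or their depth had a part in the member levels was not tested.

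Beyond neutrophils, calls were spread over several classes, and some rested on low counts. Of all 18 calls in the 13 classes, 12 did not stay past 1.5-fold under every alternative run. T cell-like cells had 4 members higher in TCM, beside 4.21% of all features: Fosb (1.22 and 2.78 CP100k, log2 ratio 1.19), Jun (17.8 and 29.5, 0.73), Egr1 (4.87 and 7.89, 0.69) and Ier3 (2.07 and 4.57, 1.14). Of these 4, only Jun was above 2 times the free RNA expectation in both libraries (4.73 and 3.02 times). Its ratio was 0.50 under thinning, the alternative that lowered it most. In B cell-like cells Ier3 was higher (3.99 and 7.31, 0.87; 4.01% of all features), on counts at 1.42 and 1.0 times the expectation.

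Monocyte-like cells had 2 members higher in TCM, where 10.7% of all features were. Ier3 was at 26.3 CP100k in CM and 52.2 in TCM (log2 ratio 0.99, 0.68 to 1.31), and it stayed past 1.5-fold under all 9 alternatives run. Fosb rested on 10 and 61 UMIs (1.28) and was 0.49 after thinning. Jun, at 48.4 and 72.3, lay just inside the limit with 0.58. In interstitial macrophage-like cells Fosb (11.6 and 19.2, 0.73) and Ier2 (56.3 and 84.9, 0.59) were higher, beside 5.73% of all features, in 84 and 83 cells. Of the Ier2 UMIs in TCM, 56.7% came from 10 cells, and the log2 ratio was 0.12 after thinning. The Fosb ratio was 0.44 with the stricter gate.

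In the alveolar epithelium the direction differed between members. AT2-like cells had higher Fosb in TCM (12.8 and 22.6 CP100k, log2 ratio 0.82; 6.03% of all features were higher by 1.5-fold), which was 0.55 in thinned cells and 0.44 when each cell was given equal weight. AT1-like cells had lower Egr1 (24.6 and 14.9, −0.72) and Ier2 (29.6 and 18.2, −0.70), where 5.99% of all features were lower. With the stricter gate, a lead of 3 markers, neither passed 1.5-fold (−0.33 and −0.52), and Ier2 did not with the looser gate (−0.50). Sftpc, a marker of AT2 cells, was at 868 CP100k in the AT1-like cells of CM and 200 in those of TCM, and its part in these ratios was not tested. Pericyte-like cells had higher Egr1 (22.2 and 37.1, 0.74; 4.34% of all features), where 10 cells held 79.6% of its UMIs in CM and 72.1% in TCM, and the ratio was 0.45 without the cells of highest doublet score. NK cell-like cells had lower Dusp1 (56.9 and 33.9, −0.75; 4.90% of all features), on 257 and 84 UMIs, and the ratio was −0.40 after thinning and −0.57 with the stricter gate. In the directions without a called member, the share of features past 1.5-fold was 3.96% lower in AT2-like, 3.66% higher in AT1-like, 3.5% lower in pericyte-like and 6.17% higher in NK cell-like cells. It was 9.92% lower in monocyte-like, 4.55% lower in interstitial macrophage-like, 7.17% lower in B cell-like, 4.16% lower in T cell-like and 14.6% higher in neutrophil-like cells.

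No member passed 1.5-fold in endothelial-like, fibroblast-like, smooth muscle-like or alveolar macrophage-like cells. The shares of all features higher and lower by as much were 3.34% and 1.88%, 3.03% and 3.20%, 4.86% and 4.18%, and 8.40% and 1.66% in these classes. In endothelial-like cells, the class with the most cells, the counting intervals of all members but Egr1 were clear of 0, with log2 ratios from −0.34 (Atf3) to 0.29 (Fosb). Within them, general capillary-like cells (810 in CM, 888 in TCM) had summed levels of 1155 and 1131 CP100k. Aerocyte-like cells, the thin capillary cells of gas exchange, numbered 130 and 126 and had 1161 and 965. In aerocyte-like cells Egr1 (67.0 and 40.9, −0.71) and Atf3 (59.1 and 32.8, −0.85) were lower, beside 4.33% of all features (4.15% were higher). In general capillary-like cells 4.03% of all features were higher, 2.14% lower, and no member passed.

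**Figure D3:**
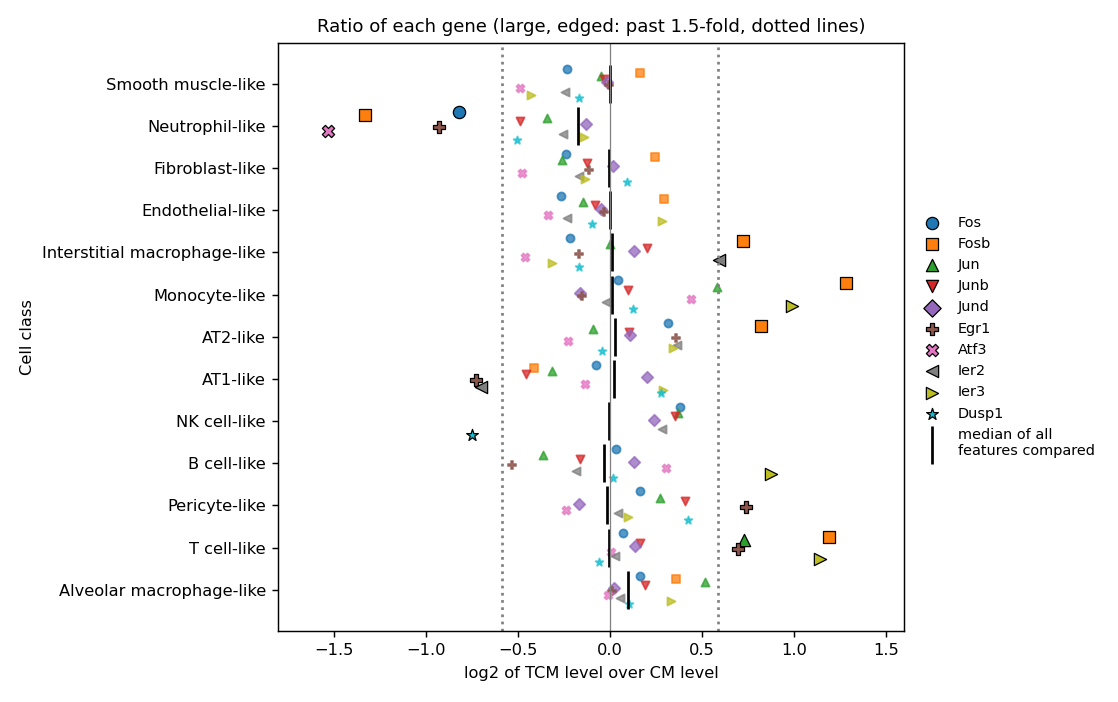
Log2 ratio of the TCM over the CM level (x axis) of each gene with enough UMIs in 13 cell classes (y axis); large edged markers passed 1.5-fold (dotted lines) and the black bar is the median of all features compared in the class. In neutrophil-like cells all 10 genes lie below 0, with Atf3 lowest at −1.53, while the 10 genes lie between the dotted lines in smooth muscle-like, fibroblast-like, endothelial-like and alveolar macrophage-like cells.

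The sums above could come from all cells of a class or from some of them, so the summed count was read in each cell after thinning it to 1000 UMIs. A cell with at least 20 member UMIs of 1000 was called high. Of the gated cells deep enough to be thinned, 14.9% were high in CM (699 of 4706) and 16.3% in TCM (856 of 5263), and 13.4% and 14.7% of all gated cells were without thinning. Cells of 15 to 24 UMIs, near the cut, were 8.65% and 13.8%. High cells are a range of values and not a type.

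Smooth muscle-like cells and, in CM, neutrophil-like cells had the largest shares of high cells. The smooth muscle-like share was 46.9% in CM (38.7 to 55.3%, exact Clopper-Pearson) and 46.2% in TCM (36.9 to 55.6%). Fibroblast-like cells had 28.1% and 30.8%, and endothelial-like cells 20.1% and 21.7%. Without thinning, which keeps shallow cells, the shares were 37.0% and 47.5% in smooth muscle-like and 23.5% and 30.0% in fibroblast-like cells. In fibroblast-like cells a long upper tail was seen: 14.7% of CM cells held 40 or more member UMIs of 1000, while 34.4% held 0 to 4. At 40 or more the smooth muscle-like shares were larger (17.0% in CM, 17.9% in TCM), and the fibroblast-like share in TCM was 12.8%. High cells held 75.9% and 73.9% of the thinned member UMIs of fibroblast-like cells, and 58.4% and 58.1% of those of endothelial-like cells.

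Neutrophil-like cells had a different shape, with the whole distribution placed high. Their median was 18 member UMIs of 1000 in CM and 12 in TCM, beside 6 in endothelial-like cells of both libraries. The share of high cells was 46.8% in CM (39.2 to 54.5%, 81 of 173 cells) and 20.3% in TCM (18.0 to 22.8%, 226 of 1111), and without thinning 42.0% and 17.9%. Cells between 15 and 24 made up 36.4% and 28.7%. The order of the libraries was the same with a cut at 10 per 1000 (85.0% and 63.9%) and at 40 (8.09% and 0.90%).

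Among the remaining classes, interstitial macrophage-like cells had 26.0% (19 of 73) in CM and 17.3% (13 of 75) in TCM, with overlapping intervals. AT2-like cells had 10.2% and 6.95%, AT1-like cells 3.09% and 4.97%, and pericyte-like cells 3.09% and 4.90%. Monocyte-like cells had 3.57% (3 of 84) and 7.78% (14 of 180). Without thinning their shares were 2.13% (2 of 94) and 3.24% (6 of 185). B, T and NK cell-like cells had 1.37% or less in both libraries. Among alveolar macrophage-like cells 0 of 203 and 0 of 257 were high, which allows shares of up to 1.48% and 1.17% when a count of 0 is taken to allow 3 cells, with exact upper bounds of 1.80% and 1.43%.

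**Figure D4:**
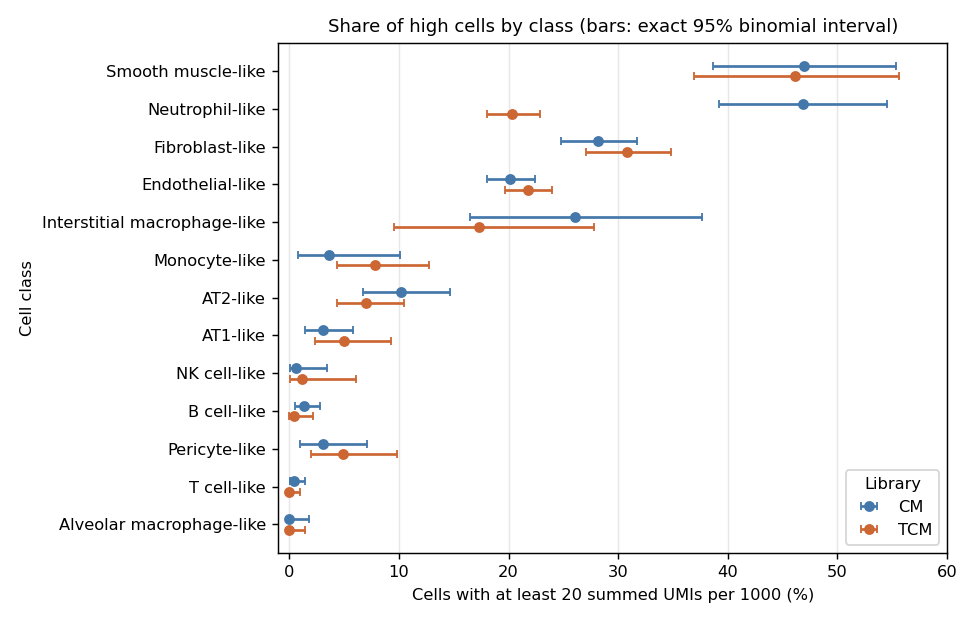
Share of cells with at least 20 summed member UMIs per 1000 (x axis, percent of thinned cells) in 13 cell classes (y axis) in CM and TCM; bars are exact 95% binomial intervals. Smooth muscle-like cells lie at 46.9% and 46.2%, while neutrophil-like cells lie at 46.8% in CM and 20.3% in TCM.

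**Figure D5:**
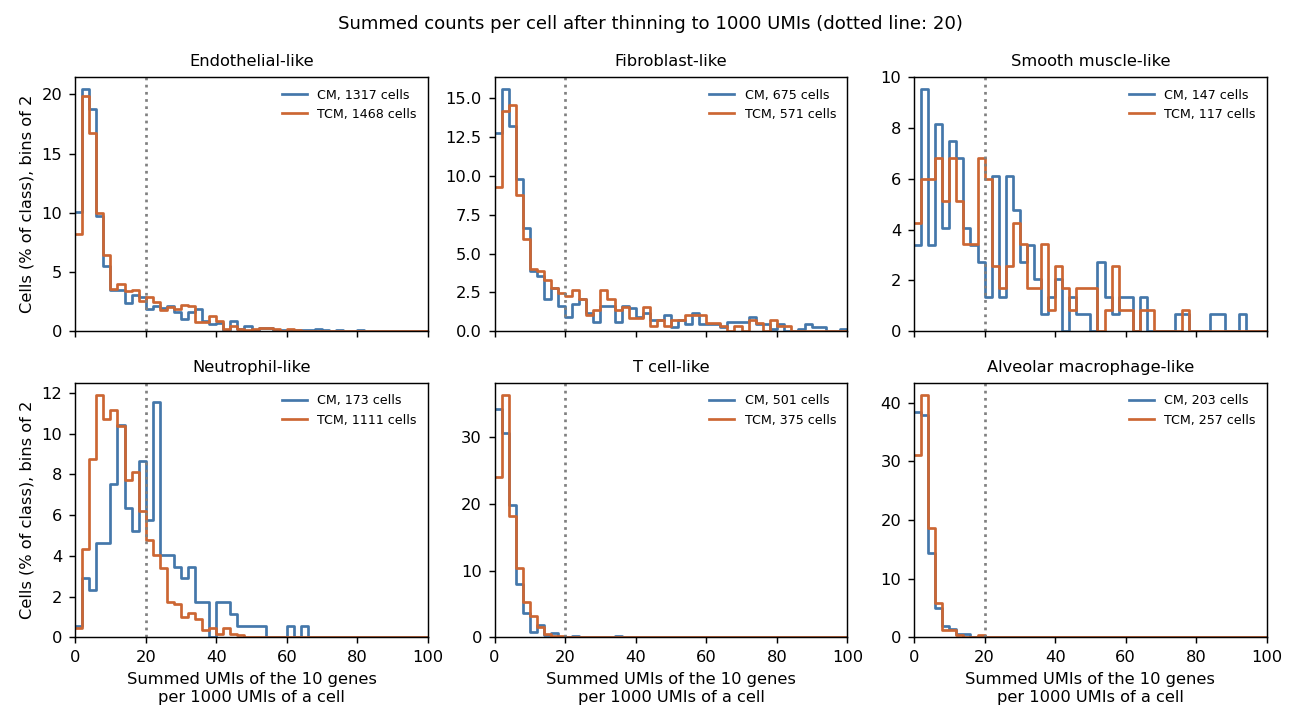
Distribution of the summed member UMIs per cell after thinning to 1000 UMIs (x axis) as the percentage of cells in bins of 2 (y axis, its range differs between panels) in 6 classes of the CM and TCM libraries; the dotted line marks 20. Fibroblast-like and endothelial-like cells show a peak near the left edge with a long tail, neutrophil-like cells a broad hump that sits further left in TCM (median 12) than in CM (median 18), and alveolar macrophage-like cells do not reach the line.

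The high cells were mostly endothelial, mesenchymal and neutrophil-like. Of 676 high cells in the 13 classes of CM, 39.2% were endothelial-like, 28.1% fibroblast-like, 12.0% neutrophil-like and 10.2% smooth muscle-like. Of 841 in TCM the shares were 37.9%, 20.9%, 26.9% and 6.42%. The neutrophil-like share of the high cells was larger in TCM although a smaller share of the neutrophil-like cells was high there; of the thinned cells of these classes, 21.7% were neutrophil-like in TCM and 3.81% in CM.

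High cells did not raise each member alike. The cut used the sum of the members, so their own levels are given as a description. In CM endothelial-like cells Ier3 was at 601 CP100k in the 265 high cells and 77.2 in the other 1052, Atf3 at 293 and 26.9, and Egr1 at 247 and 23.2. Jun was at 490 and 155, and Dusp1 at 147 and 82.5. In CM fibroblast-like cells Fos was at 982 and 74.0, Atf3 at 236 and 6.0, and Dusp1 at 473 and 139. Neutrophil-like cells of CM had Junb at 948 in high and 276 in other cells, and Jun at 30.5 and 33.3. In TCM the direction of Jun differed, with 70.9 in the 226 high and 12.8 in the other 885 neutrophil-like cells. Junb was at 840 and 290 there. Over all neutrophil-like cells of TCM, Jun was at 1.71 times the free RNA expectation.

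Genes that the cut did not use were also compared between high and other cells. The other immediate early genes summed to 1541 CP100k in high and 574 in other endothelial-like cells of CM, and to 2673 and 574 in fibroblast-like cells. In TCM they summed to 1492 and 585, and to 2243 and 603. The 6 heat-shock genes summed to 372 and 163 in CM endothelial-like and 429 and 158 in CM fibroblast-like cells, and to 666 and 559 in CM and 463 and 560 in TCM smooth muscle-like cells, where the direction thus differed between the libraries. The 14 kinases and factors upstream of the members were not higher in high cells of these classes, at 121 and 135 in CM endothelial-like and 61.3 and 68.2 in CM fibroblast-like cells.

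Depth and mitochondrial share were set beside this split. Median UMIs of high and other cells were 3468 and 2898 in CM endothelial-like and 5019 and 4249 in CM fibroblast-like cells. In TCM the high cells were the shallower ones in both classes, with 3487 and 3571 in endothelial-like and 4742.5 and 4844 in fibroblast-like cells. High smooth muscle-like and neutrophil-like cells were also shallower than the other cells of their class in both libraries. The median mitochondrial share was 1.93% in high and 2.19% in other CM endothelial-like cells. The widest gap of the 6 classes compared was in AT2-like cells of CM, with a median of 1671 UMIs in the 25 high cells and 4944 in the other 220. In TCM, high and other AT2-like cells had 5867 and 5887. The part of depth and of handling in the split was not tested.

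Within a class, pairs of members were correlated from cell to cell most in fibroblast-like and endothelial-like cells and hardly in T cell-like cells. These are correlations over thinned cells of the same library, which share depth and free RNA, and are given without a test. In fibroblast-like cells the median Pearson r over the 45 pairs was 0.50 in CM and 0.47 in TCM, with Fos and Jun at 0.72 and 0.70. In endothelial-like cells it was 0.40 and 0.37, and the highest pair was Junb with Ier3 (0.66 and 0.60). Dusp1 was the member least tied to the others there, with r of 0.06 to Ier3 in CM and −0.01 in TCM. In neutrophil-like cells the medians were 0.14 and 0.08, led in CM by Junb with Dusp1 (0.50). Medians were 0.30 and 0.35 in pericyte-like, 0.33 and 0.26 in AT2-like, 0.28 and 0.26 in smooth muscle-like and 0.26 and 0.26 in interstitial macrophage-like cells. T cell-like cells had medians of 0.03 and 0.05, and there Fosb, Egr1, Atf3 and Ier3 were under 2 times the free RNA expectation.

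The genes whose class pattern was most like the summed members were picked by Pearson's r over 26 points, 13 classes in each library, among 8715 genes. Socs3 (0.91) and Zfp36 (0.91) came first, followed by Nfkbiz (0.85), Nfkbia (0.84), Csrnp1 (0.84), Ppp1r15a (0.82), Gadd45b (0.81) and Sertad1 (0.81). In all 8 the lowest CM class was alveolar macrophage-like cells, as for the sum. Of the 8, 6 were on the list of other immediate early genes.

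Related lists were compared in the same way. Over all gated cells the other 29 immediate early genes summed to 748 CP100k in CM and 764 in TCM, with 3 higher and 0 lower by 1.5-fold, beside 5.23% of all 14063 features higher and 5.86% lower. Fosl1 (log2 ratio 1.37) and Fosl2 (0.88), further partners in AP-1, were the furthest above. Values over all gated cells pool a different mix of classes in each library. Neutrophil-like cells were 3.19% of the kept cells in CM and 17.9% in TCM, and the part of this mix was not tested. The 10 phosphatases and other feedback inhibitors of MAP kinases summed to 37.5 and 35.4. Of these, 2 were lower by 1.5-fold, Dusp2 (−0.82) and Dusp10, and 0 higher. The kinases and factors upstream, which include Mapk3 and Map2k2, were at 85.7 and 84.6 with none past 1.5-fold. The 8 other AP-1 partners had 33.8 and 37.4, with 1 higher by 1.5-fold (Jdp2) and 0 lower. Single classes differed more: the other immediate early genes were at 1774 and 1269 in neutrophil-like cells, and the other AP-1 partners at 73.9 and 115 in monocyte-like cells. The 6 heat-shock genes, induced by unfolded protein, were at 185 and 142, with a median log2 ratio of −0.47 and Hspa1a past the limit at −0.66. In endothelial-like cells they were at 210 and 147, and in fibroblast-like cells at 239 and 231. They were higher in TCM in alveolar macrophage-like (56.5 and 62.3) and interstitial macrophage-like cells (154 and 164). The endothelial-like difference stands beside member sums that differed by −0.06 on the log2 scale in that class. What it owes to handling of the 2 libraries cannot be told apart from the injections.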

How the data were processed

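The authors prepared 5′ droplet libraries, mapped reads to mm10 (GRCm38.p6) with Cell Ranger (version 4 in the file headers) and deposited raw UMI counts per gene and barcode, without normalization and before any cell calling. Gene coordinates are from GENCODE vM21. From these counts, cells with at least 500 UMIs, 200 genes and at most 10% mitochondrial UMIs were kept, as in the study. A marker was positive where its count had a Poisson tail under 0.01 given free RNA, estimated from Scgb1a1. A cell took a class with at least 2 positive markers and a lead of 2 over the next class. The gate was set after cell numbers and marker levels had been seen. UMIs were summed per class and library and divided by the class total. A ratio needed 50 UMIs over both libraries, and a gene was called past 1.5-fold. Ratio intervals are conditional binomial. For shares of high cells, cells under 1000 UMIs were left out (1037 in CM, 826 in TCM). Scrublet in scanpy 1.11.5 marked 0% of cells, so it had not worked, doublets were kept, and the top 6% by score were left out as an alternative. Other tools were Python 3.11.15, numpy 2.4.6, scipy 1.17.1 and pandas 2.3.3. Steps were tested on simulated data. All members are named; of a list, the 4 genes with the most UMIs and the 2 furthest in each direction could be named. The members, markers and lists were chosen with earlier results of these data known. Names carry "-like" because they were rebuilt here, which can itself make values differ from those of the study.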

Additional observations from a re-analysis of the deposited data

Results flagged for a closer look

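In some members the TCM over CM ratio passed 1.5-fold in opposite directions in different classes. Fosb was higher in TCM in AT2-like (log2 ratio 0.82), monocyte-like (1.28), interstitial macrophage-like (0.73) and T cell-like cells (1.19, at under 2 times the free RNA expectation in both libraries) and lower in neutrophil-like cells (−1.33). Egr1 was higher in pericyte-like cells (0.74) and lower in AT1-like (−0.72) and neutrophil-like cells (−0.93). Its ratio of 0.69 in T cell-like cells rests on counts read as background and was −2.47 with free RNA subtracted. Ier2 was higher in interstitial macrophage-like (0.59) and lower in AT1-like cells (−0.70). With 1 library per condition, the difference between classes was not tested in any of these genes.

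The members were also read in droplets of at most 50 UMIs, which hold free RNA and enter no comparison between classes. The sum was 649 CP100k in CM and 747 in TCM (log2 ratio 0.20, 0.14 to 0.27). Dusp1 differed most there, at 55.5 and 83.1 (0.58, 0.37 to 0.79).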

How the results depend on the processing

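No paired analysis was possible because each condition had 1 library, and for the same reason no library could be left out. The order of the classes kept a Spearman's rho of at least 0.98 with the order reported under every alternative, with alveolar macrophage-like cells lowest in each. Neutrophil-like cells passed smooth muscle-like cells in CM as a mean over cells and with scaling without the 20 most abundant genes.

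The log2 ratio of the sum in neutrophil-like cells (−0.51) was −0.42 with scaling without the 20 most abundant genes, −0.55 as a mean over cells, −0.58 in thinned cells, −0.58 with the stricter gate (a lead of 3 markers), −0.55 with the looser gate (a lead of 1), −0.46 without Fos and −0.55 without Jund. Over all gated cells the ratio (0.01) was 0.0272 with that scaling, 0.15 as a mean over cells, 0.12 in thinned cells, 0.0261 at 5% mitochondrial UMIs, 0.0205 with free RNA subtracted and −0.00873 with the stricter gate. Leaving 1 member out of the sum gave 0.0376 (Fos), 0.0406 (Jun), −0.00438 (Junb), 0.0286 (Atf3), 0.0196 (Ier2), −0.0285 (Ier3) and −0.0249 (Dusp1). With the stricter gate 1 class, pericyte-like, passed 1.5-fold in the sum, at 0.62.

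Of the 18 member and class pairs past 1.5-fold in the 13 classes, 5 passed 2-fold and 6 stayed past 1.5-fold under every alternative run. These were Fos, Fosb, Egr1 and Atf3 in neutrophil-like cells, Ier3 in monocyte-like cells and Fosb in T cell-like cells. Fosb in T cell-like cells was under 2 times the free RNA expectation in both libraries and is read as background. Its ratio ran from 0.93 to 3.32 over the alternatives. With free RNA subtracted, Ier3 in B cell-like cells turned to −6.87 and Egr1 in T cell-like cells to −2.47, both left with almost no counts in TCM, and Ier3 in T cell-like cells gave no value. Calls in general capillary-like and aerocyte-like cells were not run under the alternatives.

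The share of high cells followed the cut. Among gated cells it was 28.0% (CM) and 36.9% (TCM) at 10 per 1000, 4.42% and 3.23% at 40, and 13.4% and 14.7% without thinning. Among neutrophil-like cells it was 85.0% and 63.9% at 10, 8.09% and 0.90% at 40, and 17.9% in TCM without thinning. Cell number limits the small classes, with 73 thinned interstitial macrophage-like and 84 monocyte-like cells in CM, while thinning left out the largest part of the neutrophil-like cells of CM (82 of 255).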

Other observations

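Classes with too few cells to compare held members at levels from very low to very high. Basophil-like cells, 8 in CM and 9 in TCM, had the highest sum of any gated class, at 2882 and 5365 CP100k. Plasma cell-like cells, 11 and 9, had the lowest, at 113 and 102. Ciliated-like cells (54 and 39) were at 625 and 556, and dendritic cell-like cells (35 and 40) at 691 and 697. ILC2-like cells, 14 and 15, were at 1007 and 939. Mesothelial-like cells (27 and 32) were at 1284 in CM and 448 in TCM, and club-like cells (22 and 24) at 545 and 251. Cells left without a class numbered 2245 and 1618, with medians of 988 and 1012 UMIs, and had 902 and 880.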
